A study of Mus musculus with 8 samples.

Results

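The solute carrier (Slc) genes encode transporters that carry nutrients, ions and metabolites across the plasma membrane and the membranes of organelles. Foxp3 occupancy was described here at 66 listed binding sites of 47 Slc genes, out of 5521 sites in all, of which 5210 could be given a gene. Each site was given the protein-coding RefSeq gene whose body, widened by 5 kb at each end, held its centre, or otherwise the nearest gene end within 100 kb. Sites of genes with a symbol of Slc followed by a digit were kept, so a gene is named here by nearness, and the files hold no measure of its expression. The RefSeq table lists 375 such genes. The 2 sites of Slc4a1ap are counted by this rule, although the gene encodes kanadaptin, an adaptor protein named for its binding to an anion exchanger, and no transporter.

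Foxp3 is the transcription factor that defines regulatory T (Treg) cells, and R397W is a missense change in its forkhead domain, the part that contacts DNA. CUT&Tag was used, in which an antibody directs a transposase to chromatin so that DNA beside the target is cut and tagged. Treg cells were sorted as CD4+hCD2+GFP- from spleen and lymph nodes. The mice were of the C57BL6/J strain and carried Foxp3WT-IRES-hCD2 or Foxp3R397W-IRES-hCD2 on one allele and Foxp3-IRES-GFP on the other, so every group shared the GFP allele and the sort kept cells that used the hCD2 allele. The 4 groups were WT Foxp3, R397W Foxp3, WT IgG and R397W IgG, with 2 libraries each (replicates 1 and 2), and IgG served as the background. The labels do not say whether the replicates came from separate mice or from pooled mice, so p-values measure only the spread between these libraries, which may be technical. The authors list each site as common, cTreg-specific or eTreg-specific, where eTreg stands for effector Treg.

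Resting T cells take up few nutrients, and activated T cells raise the import of glucose, amino acids and metal ions through Slc transporters. Amino acids that enter through such transporters feed the mTOR pathway, which Treg cells use on their way to the effector state. Other Slc proteins sit in endosomes, the Golgi or mitochondria, where they set pH, zinc, nucleotide sugars or metabolite exchange.

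At 5 of the 66 sites the window overlapped a promoter of the gene itself, taken as the 250 bases before its start site (RefSeq, GRCm38.p6), and these promoters are printed. They belong to Slc35a1, which carries CMP-sialic acid into the Golgi, Slc4a1ap, Slc15a4, a lysosomal peptide and histidine transporter, Slc35b4, a Golgi transporter of nucleotide sugars, and Slc9b2, a sodium-proton antiporter. The promoter of Slc9a9, an endosomal sodium-proton exchanger, is added because this gene had the most sites and the centre of one of them lay 1211 bases before the start. Capitals mark exact matches on either strand to the AP-1 motif TGANTCA, the ETS core GGAAGT, the GC box GGGCGG and the CCAAT box CCAAT.
Slc35a1, chr4:34687439-34687688, minus strand: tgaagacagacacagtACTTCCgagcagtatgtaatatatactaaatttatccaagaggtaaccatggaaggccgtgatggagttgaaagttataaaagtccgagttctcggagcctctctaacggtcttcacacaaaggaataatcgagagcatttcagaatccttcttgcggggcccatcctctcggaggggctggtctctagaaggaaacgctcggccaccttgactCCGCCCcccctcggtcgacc
Slc4a1ap, chr5:31526745-31526994, plus strand: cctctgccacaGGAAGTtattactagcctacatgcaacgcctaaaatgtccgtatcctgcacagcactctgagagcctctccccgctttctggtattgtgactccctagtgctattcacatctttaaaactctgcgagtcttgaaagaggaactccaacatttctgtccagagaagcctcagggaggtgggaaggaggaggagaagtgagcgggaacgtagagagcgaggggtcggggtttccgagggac
Slc15a4, chr5:127617393-127617642, minus strand: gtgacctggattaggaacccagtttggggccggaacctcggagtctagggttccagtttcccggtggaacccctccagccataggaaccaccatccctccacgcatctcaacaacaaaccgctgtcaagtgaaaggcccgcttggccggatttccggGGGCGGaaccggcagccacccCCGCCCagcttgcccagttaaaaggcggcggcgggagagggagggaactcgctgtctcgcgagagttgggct
Slc35b4, chr6:34177055-34177304, minus strand: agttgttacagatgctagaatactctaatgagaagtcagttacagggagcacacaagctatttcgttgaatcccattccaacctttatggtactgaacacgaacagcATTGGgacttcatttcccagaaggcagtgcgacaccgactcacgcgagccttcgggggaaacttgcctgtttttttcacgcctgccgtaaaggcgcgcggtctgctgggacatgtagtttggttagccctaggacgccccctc
Slc9b2, chr3:135307450-135307699, plus strand: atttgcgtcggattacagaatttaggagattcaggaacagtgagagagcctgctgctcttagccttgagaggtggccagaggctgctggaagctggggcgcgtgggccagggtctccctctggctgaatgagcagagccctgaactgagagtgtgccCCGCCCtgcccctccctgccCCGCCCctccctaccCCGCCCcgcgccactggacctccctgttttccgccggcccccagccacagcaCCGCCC
Slc9a9, chr9:94669642-94669891, plus strand: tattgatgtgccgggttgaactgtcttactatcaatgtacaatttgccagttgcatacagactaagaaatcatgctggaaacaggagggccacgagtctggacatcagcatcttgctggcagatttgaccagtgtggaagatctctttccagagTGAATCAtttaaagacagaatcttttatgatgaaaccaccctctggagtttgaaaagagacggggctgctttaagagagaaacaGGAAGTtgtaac

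None of the 7 motifs searched first was found in the 5 overlapped promoters. These were forkhead TGTTTAC, AP-1 TGANTCA, ETS CCGGAAG, RUNX TGTGGTT, NF-kB (its decamer consensus), CRE TGACGTCA and E-box CACGTG, which occurred in 2.62%, 6.13%, 8.98%, 3.82%, 0.372%, 1.92% and 6.63% of all 21262 promoters. The Slc9a9 promoter held the AP-1 match TGAATCA 96 bases before the start. The GC box, the ETS core and the CCAAT box were added after the promoters had been read, and they occurred in 42.6%, 20.4% and 35.4% of all promoters. The ETS and ETS core motifs share letters, so a promoter may hold a match to both. In the overlapped promoters, the GC box was found 4 times in Slc9b2, 2 times in Slc15a4 and 1 time in Slc35a1, the ETS core in Slc35a1 and Slc4a1ap, and the CCAAT box, on the other strand, in Slc35b4. A promoter was in the table for 40 of the 47 genes, which have 57 of the sites; the genes without an entry included Slc38a1, Slc2a3, Slc6a6, Slc26a2 and Slc16a6. Among the 52 promoters of the 40 genes, the forkhead motif occurred in 1 (Slc36a3), AP-1 in 3 (Slc49a4, Slc7a1 and Slc9a9) and the E-box in 6 (Slc12a7, Slc12a9, Slc20a1, Slc30a5, Slc37a3 and Slc49a4).

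The common class held a smaller part of the Slc sites than of the whole list. Of the 66, 30 were common (45.5%), 16 cTreg-specific (24.2%) and 20 eTreg-specific (30.3%). Among all 5210 sites with a gene, these classes made up 70.4%, 12.7% and 16.8%. Slc9a9 alone gave 6 of the 20 eTreg-specific sites, and without its sites the eTreg-specific share was 23.7% of 59 sites. Inside gene bodies the eTreg-specific class made up 38.9% of 36 Slc sites against 15.3% of all 3505 sites inside a gene. Slc9a9 gave 4 of the 14 eTreg-specific Slc sites inside gene bodies, and Slc4a7 gave 2. These shares are a description without a test.

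Transporter groups were formed by Slc family number. The inorganic ion group was the largest, with 22 sites of 13 genes, and 12 of its sites were eTreg-specific (6 of them at Slc9a9), 9 common and 1 cTreg-specific. The metal ion group of zinc importers and exporters had 5 cTreg-specific sites of 9, of which 3 were at Slc30a7, beside 3 common and 1 eTreg-specific. Amino acid transporters had 12 sites of 10 genes, of which 6 were common, 3 cTreg-specific and 3 eTreg-specific. Sugar transporters had 2 sites in each class, all of Slc2a3, Slc37a3 and Slc5a11. The 4 sites of nucleotide sugar transporters and the 2 of mitochondrial carriers (Slc25a30 and Slc25a45) held no eTreg-specific site. No listed site belonged to the lipid, bile acid and choline group.

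**Figure D1:**
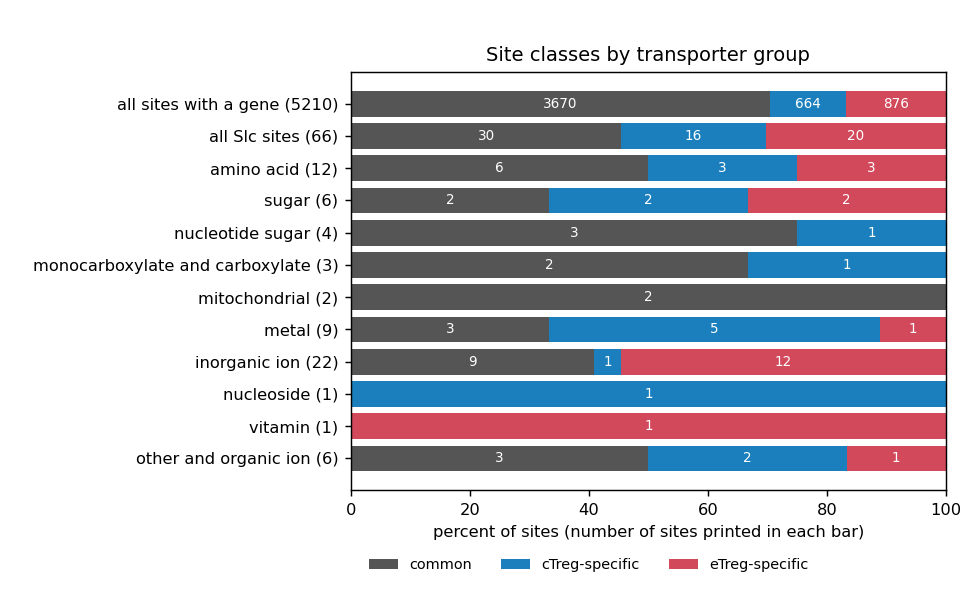
Share of common, cTreg-specific and eTreg-specific sites (x axis, percent; the number of sites is printed in each bar) for all 5210 sites with a gene, all 66 Slc sites and each transporter group (y axis, number of sites in brackets). The inorganic ion bar holds 12 eTreg-specific sites of 22, of which Slc9a9 gives 6, and the metal bar 5 cTreg-specific sites of 9, of which Slc30a7 gives 3.

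Few genes had several sites. A single site was found at 36 of the 47 genes (76.6%, against 63.1% of all 2760 genes with a site), 7 had 2 sites, 3 had 3 sites (Slc37a3, Slc39a11 and Slc30a7), and Slc9a9 had 7. No Slc gene had both a cTreg-specific and an eTreg-specific site, a combination seen at 65 of the 2760 genes. A common site beside a specific one occurred at 6 genes, namely Slc2a3, Slc37a3, Slc38a1, Slc39a11, Slc4a1ap and Slc9a9. When sites less than 50 kb apart were joined, the 66 sites formed 49 loci, so part of them share a locus. At chr13:73702725-73740674, 4 sites lay within 37.9 kb, namely 2 cTreg-specific sites given to Slc6a19, a neutral amino acid transporter, and 2 common sites given to Slc12a7, a potassium-chloride cotransporter.

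By position, 36 sites (54.5%) lay inside the gene body, 10 (15.2%) within 5 kb of an end and 20 (30.3%) further away, against 67.3%, 11.3% and 21.4% of all sites with a gene. Exons and introns were not used here. Of the 57 sites with a start site in the promoter table, 6 had their centre within 1 kb of it, the 5 that overlap a promoter and that of Slc25a45, a mitochondrial carrier, at 253 bp.

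Libraries differed in how many sites they covered. Recovered reads over all listed sites ranged from 111274 in R397W Foxp3 replicate 1 to 394196 in WT Foxp3 replicate 2. Replicate 2 held more reads than replicate 1 in all groups but WT IgG, and still left more sites empty in every group, 44.4% to 66.8% of all sites against 3.13% to 27% in replicate 1. In WT cells, 3 of the 66 Slc sites had no reads in Foxp3 replicate 1 and 23 in replicate 2, and with IgG the numbers were 12 and 47. In R397W cells they were 6 and 37 with Foxp3 and 8 and 40 with IgG. Among genes that mark cell types, 5 of 6 Treg markers had sites (23 in all), none of the 10 B cell and myeloid markers had one, and 2 of 5 CD8 T and NK markers, Gzmb and Klrb1c, had 2 each, which speaks of listed sites and not of RNA.

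The share of reads that fell in Slc sites was near their 1.20% share of sites. It was 1.23% (Wilson 95% interval 1.19 to 1.28) and 1.21% (1.18 to 1.24) in the WT Foxp3 libraries and 1.27% (1.20 to 1.33) and 0.879% (0.845 to 0.914) in the R397W Foxp3 libraries. The WT IgG libraries held 1.23% and 0.947%, and the R397W IgG libraries 1.31% and 1.01%. Intervals cover counting error only, since no molecular identifiers are named for these reads. The means were 1.22% ± 0.0168 (SD, n = 2) in WT Foxp3 and 1.07% ± 0.273 in R397W Foxp3, against 1.09% ± 0.199 in WT IgG and 1.16% ± 0.208 in R397W IgG, so the groups overlapped. With 2 libraries against 2, the exact permutation test cannot give a p below 0.33.

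In R397W Foxp3 replicate 2 the means of the specific Slc sites were low. Relative to the mean of all sites of the class, the Slc mean in that library was 0.98 for common, 0.639 for cTreg-specific and 0.590 for eTreg-specific sites. In both specific classes the median there was 0 over the Slc sites and over all sites, so these ratios rest on the sites that had reads. In R397W Foxp3 replicate 1 these ratios were 1.17, 1.14 and 0.955, so the R397W replicates differed. In the WT Foxp3 libraries they ranged from 0.966 to 1.20. The IgG libraries varied as widely, with a cTreg-specific ratio of 1.55 in WT IgG replicate 1 and 0.733 in R397W IgG replicate 2, whose eTreg-specific ratio was 1.43.

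**Figure D2:**
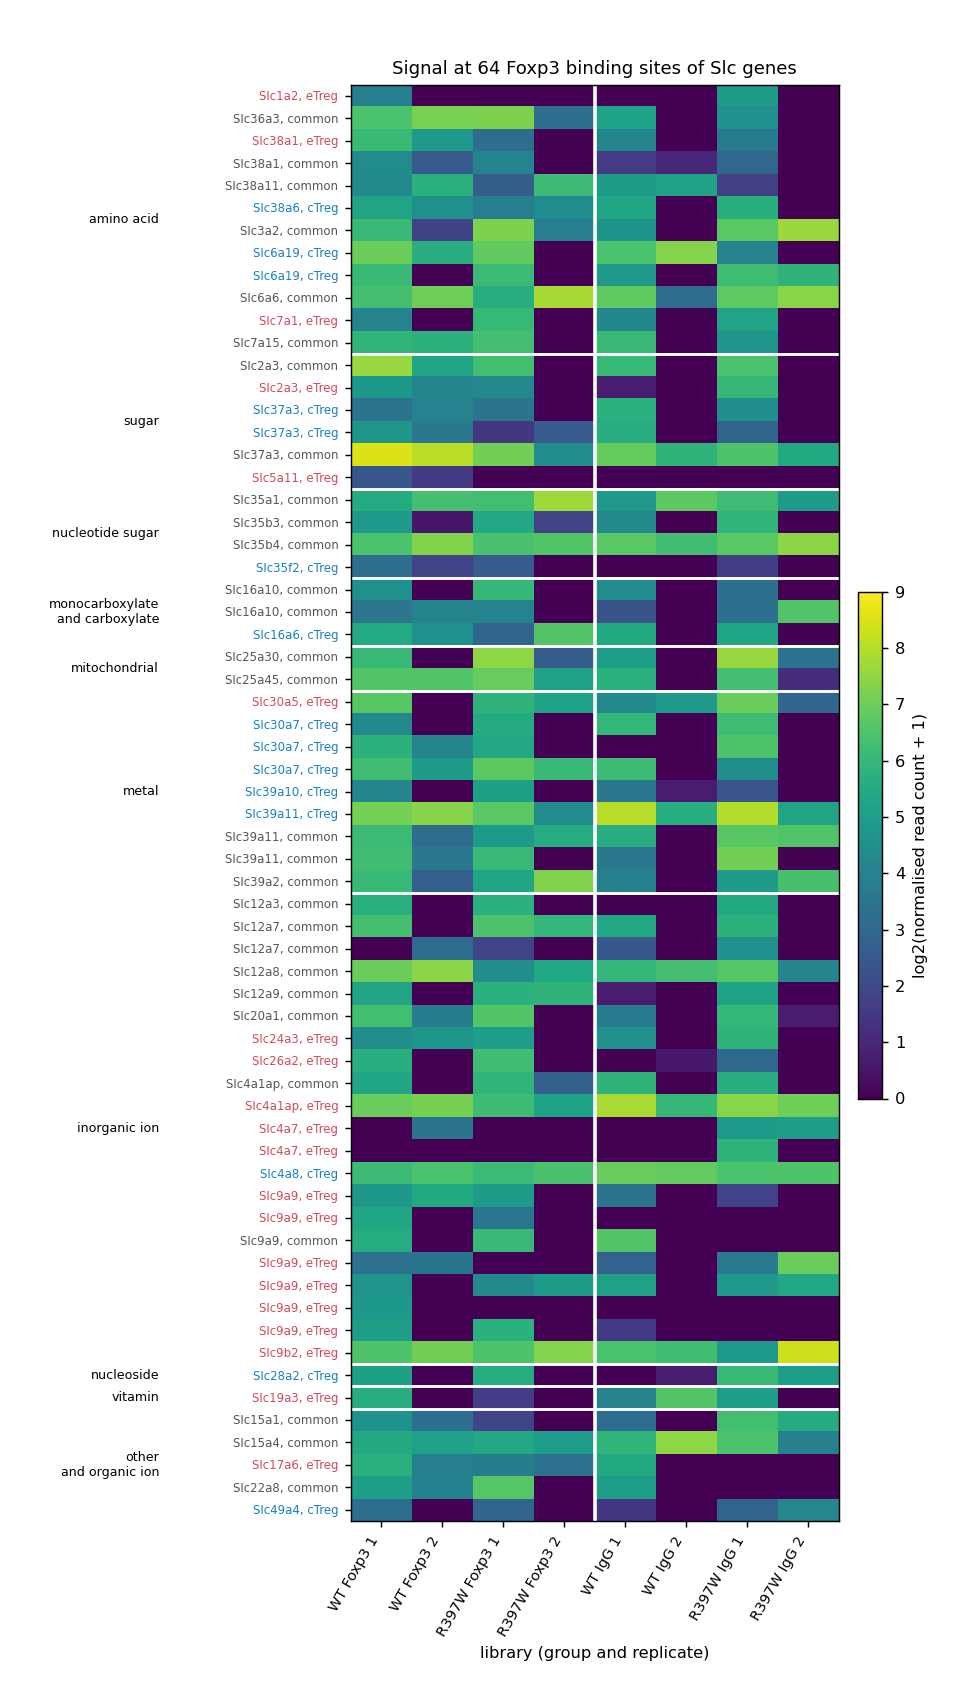
Heat map of log2(normalised read count + 1) for 64 of the 66 Slc sites (y axis, gene and class, grouped by transported substrate; label colours as in the bar plot of site classes) in the 8 libraries (x axis). Replicate 2 columns hold most of the dark cells without reads, and the common site of Slc37a3 is the brightest row in the WT Foxp3 columns.

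No Slc site passed the test of R397W against WT Foxp3 (limma on log2(normalised read count + 1), adjusted p under 0.05 over all 5521 sites, 0 called, 0% of all sites). The lowest adjusted p of the 66 was 1, and edgeR and DESeq2 on the recovered reads called 0 as well. At an unadjusted p under 0.05, 2 of the 66 were lower in R397W, at Slc37a3 and Slc12a8 (0.272% of all sites), and none was higher (0.0543%), while edgeR had 1 and DESeq2 had 0 at that level in either direction. Shares of all sites at that level are given for limma only. R397W values lay below both WT values at 11 of 66 sites (12.6% of all sites) and above both at 1, Slc12a9 (6.43%). The fitted difference was below 0 at 40 of 66 sites, 60.6%, against 60.4% of all sites.

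The median log2 difference over the Slc sites was -0.61, against -0.39 over all sites, or -0.55 against -0.31 when sites with an empty group were set to a floor of 3 reads per library. Sites for which that floor gave no bound were left out of the latter medians, 2 of the Slc sites and 226 of all sites. Sites with reads in only 1 library of a group kept their fitted difference. By class the Slc medians were -0.25 for common, -0.50 for cTreg-specific and -1.54 for eTreg-specific sites, against -0.33, -0.35 and -0.79 over all sites of each class. Without R397W Foxp3 replicate 2 the Slc median was 0.31 and without replicate 1 it was -2.0. Without WT Foxp3 replicate 1 it was -0.15 and without replicate 2 it was -1.67. It was -0.16 when the lowest 25% of sites were left out. Among transporter groups of 6 or more sites the median was -2.26 for sugar transporters (6 of 6 below 0), -1.11 for amino acid transporters (8 of 12), -1.05 for other and organic ion transporters (6 of 6), -0.02 for inorganic ion transporters (11 of 22) and 0.59 for metal ion transporters (3 of 9). The smaller groups ran from -1.99 at the single vitamin transporter site, that of Slc19a3, to 0.75 over the 2 mitochondrial carrier sites.

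**Figure D3:**
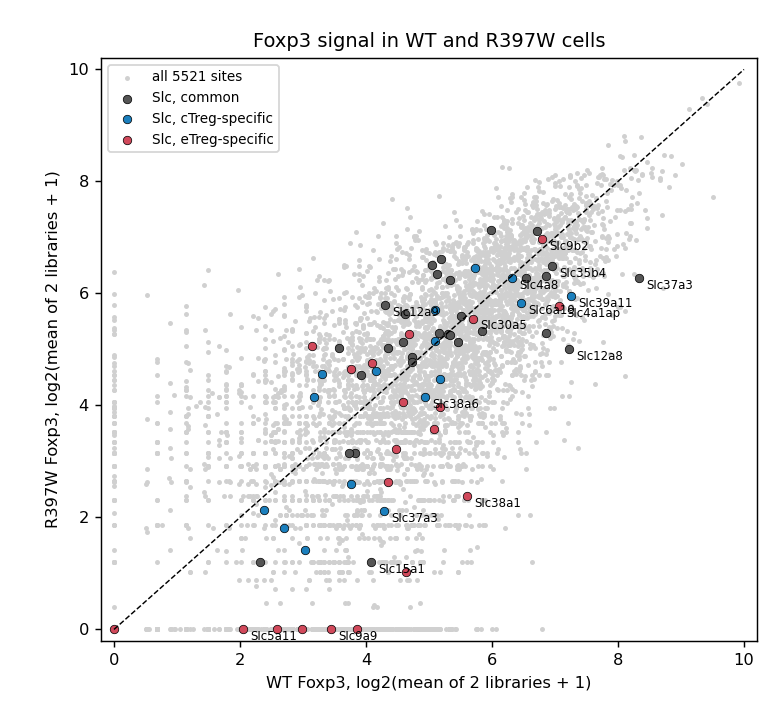
Mean Foxp3 signal of the 2 WT libraries (x axis) and of the 2 R397W libraries (y axis), both as log2(mean + 1) of the normalised read count, for all 5521 sites (grey) and the 66 Slc sites coloured by class. The dashed line marks equal values; Slc37a3 and Slc12a8 lie below it at the strong end, and Slc9a9 and Slc5a11 label sites with no reads in either R397W library.

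Among sugar transporters, the common site of Slc37a3 at chr6:39334222-39334622 had the strongest WT Foxp3 signal of all Slc sites. Slc37a3 belongs to the family of sugar phosphate exchangers and works in lysosomes. The site lies 348 bp beyond the gene end that is farther from the start. Its normalised read counts were 370 and 271 with Foxp3 and 116 and 56.2 with IgG in WT cells, and 134 and 19.3 with Foxp3 and 90.5 and 43.3 with IgG in R397W cells. Both WT Foxp3 libraries were above every other library, and the R397W Foxp3 values overlapped those of IgG. The log2 difference of R397W and WT Foxp3 was -2.60 (SE 0.97, unadjusted p = 0.0338, limma, adjusted p = 1), and it ranged from -3.96 to -1.23 with each Foxp3 library left out in turn. WT Foxp3 was 1.96 above WT IgG on the log2 scale (SE 1.12) and R397W Foxp3 was 0.28 below its IgG (log2 difference -0.28, SE 1.12), and neither passed.

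The other sugar transporter sites were weaker. At the cTreg-specific Slc37a3 site chr6:39316061-39316461, WT Foxp3 gave 26.1 and 10.8 and R397W Foxp3 1.69 and 4.96, without overlap, but WT IgG replicate 1 reached 48.0. Slc2a3 encodes the high-affinity glucose transporter GLUT3 and had a common and an eTreg-specific site, both inside the gene and part of a locus 16.8 kb long. The common site gave 193 and 38.2 in the WT Foxp3 libraries against 66.1 and 0 with WT IgG, while the R397W Foxp3 libraries had 76.1 and 0 against 86.0 and 0 with IgG. The eTreg-specific site gave 26.9 and 15.7 with Foxp3 and 0.629 and 0 with IgG in WT cells, and 16.8 and 0 with Foxp3 and 62.0 and 0 with IgG in R397W cells. At both Slc2a3 sites WT Foxp3 replicate 2 was lower than R397W Foxp3 replicate 1, so the groups overlapped. Slc5a11, a sodium and inositol cotransporter, had 4.33 and 1.92 in WT Foxp3 and no reads in the other 6 libraries; these are 5 reads in each WT library, and the WT mean of 3.13 was below what 3 reads per library are worth in R397W Foxp3, so no fold between genotypes is given.

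Among inorganic ion transporters, the common site of Slc12a8, a cation-chloride cotransporter family member, lay inside the gene at chr16:33606715-33607115. It gave 125 and 170 in the WT Foxp3 libraries against 60.8 and 78.6 with WT IgG, while the R397W Foxp3 libraries had 21.0 and 41.2 against 97.3 and 15.9 with IgG. WT Foxp3 was above all other libraries, and R397W Foxp3 was below both WT IgG libraries. The log2 difference of R397W and WT Foxp3 was -2.27 (SE 0.89, unadjusted p = 0.040, limma, adjusted p = 1). Slc12a9, of the same family, went the other way, with 37.6 and 0 in WT Foxp3 and 52.5 and 56.7 in R397W Foxp3, while WT IgG gave 0.661 and 0 and R397W IgG 36.2 and 0. Its log2 difference of 3.16 (SE 2.53) was 0.53 without WT Foxp3 replicate 2, the library with no reads there, and up to 5.80 without another.

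At Slc4a8, a sodium-driven chloride and bicarbonate exchanger, IgG exceeded Foxp3. Its cTreg-specific site gave 70.7 and 86.1 in the WT Foxp3 libraries against 123 and 114 with WT IgG, while the R397W Foxp3 libraries had 69.1 and 84.4 against 86.5 and 91.3 with IgG. In each genotype both Foxp3 libraries were below both IgG libraries. The WT and R397W Foxp3 values at Slc4a8 were nearly the same (log2 difference -0.03, SE 0.78).

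Slc9b2 and the eTreg-specific site of Slc4a1ap were the strongest eTreg-specific Slc sites. Slc9b2 gave 90.9 and 130 with Foxp3 and 85.5 and 74.5 with IgG in WT cells, and 88.0 and 162 with Foxp3 and 27.3 and 317 with IgG in R397W cells, and both WT Foxp3 and R397W Foxp3 lay above both WT IgG libraries, while WT and R397W Foxp3 overlapped and R397W IgG spanned all other values. The Slc4a1ap site, 15.0 kb beyond the gene end, gave 124 and 141 in the WT Foxp3 libraries against 233 and 62.0 with WT IgG, while the R397W Foxp3 libraries had 71.2 and 36.7 against 166 and 128 with IgG. R397W Foxp3 was below WT Foxp3 and below its own IgG there without overlap (R397W minus WT log2 difference -1.35, SE 0.79), but WT Foxp3 lay within the range of WT IgG.

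Slc9a9 had 7 sites over 545 kb, from 62.5 kb before its start to 482 kb into its 561 kb body, which makes it longer than 98.9% of all genes with a site. Genes with 6 or more eTreg-specific sites numbered 7 of 2760, Slc9a9 among them. The 6 eTreg-specific sites summed to 159 and 53.4 in WT Foxp3, with reads at 6 and 2 of them, and to 111 and 29.7 in R397W Foxp3, with reads at 4 and 1. With IgG the same sites summed to 52.8 and 0 in WT cells and to 42.2 and 162 in R397W cells. The Foxp3 sums of WT and R397W overlapped, and replicate 2 of R397W IgG was the highest of all libraries. At the site 8525 bp into the gene, WT Foxp3 gave 9.53 and 10.4 and R397W Foxp3 no reads, at least 2.31-fold lower against the floor of 3 reads per library, while R397W IgG gave 12.4 and 121. At the site 444 kb into the gene only WT Foxp3 replicate 1 had reads (26.9).

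**Figure D4:**
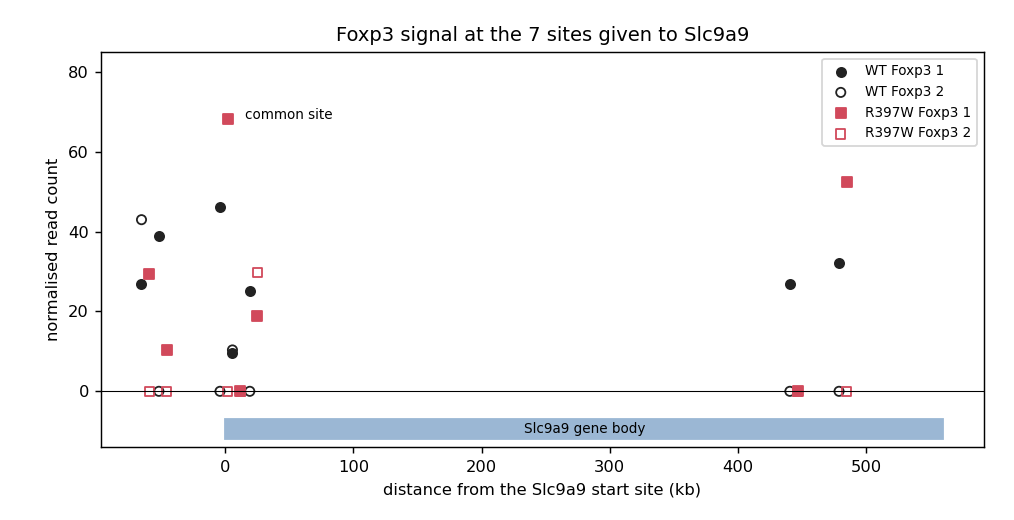
Normalised read count (y axis) of each Foxp3 library at the 7 sites of Slc9a9 by distance from the start site in kb (x axis); WT points are drawn 3 kb to the left and R397W points 3 kb to the right of the true position so that they can be told apart. Most replicate 2 points (open symbols) lie at 0, and the common site near the start reaches its highest value in R397W Foxp3 replicate 1.

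Among amino acid transporters, the eTreg-specific site of Slc38a1, a sodium-coupled importer of glutamine and other neutral amino acids, had the most negative fitted difference of the 66 without passing the test. It gave 67.6 and 27.6 with Foxp3 and 15.7 and 0 with IgG in WT cells, and 8.38 and 0 with Foxp3 and 12.4 and 0 with IgG in R397W cells. WT Foxp3 was above all 6 other libraries, and R397W Foxp3 lay within the range of IgG (R397W minus WT log2 difference -3.85, SE 3.04, limma). The common Slc38a1 site gave 19.4 and 5.12 in WT Foxp3, 15.8 and 0 in R397W Foxp3, and at most 6.79 in any IgG library. Slc38a6, of the same family, was separated by a narrow gap, with 37.0 and 22.2 in WT Foxp3 and 13.5 and 19.9 in R397W Foxp3. IgG gave 38.6 and 0 there in WT cells and 49.7 and 0 in R397W cells. Replicate 1 of IgG in each genotype was thus above every Foxp3 library.

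The other amino acid transporters known from activated T cells did not separate WT from R397W. Slc3a2 encodes the heavy chain of CD98, the partner of the leucine importer, and gave 65.5 and 2.33 in the WT Foxp3 libraries against 24.5 and 0 with WT IgG, while the R397W Foxp3 libraries had 147 and 13.5 against 102 and 199 with IgG. Slc6a6, the taurine transporter, gave 80.0 and 129 with Foxp3 and 110 and 7.96 with IgG in WT cells, and 47.3 and 228 with Foxp3 and 109 and 168 with IgG in R397W cells. Slc7a1, an importer of arginine, had an eTreg-specific site with 15.6 and 0 in WT Foxp3 and 64.9 and 0 in R397W Foxp3. At all 3 genes the R397W range reached above WT, and IgG values overlapped both. Slc6a19, a neutral amino acid transporter best known from gut and kidney, had the second strongest cTreg-specific site, with 124 and 50.5 in the WT Foxp3 libraries against 87.5 and 161 with WT IgG, while the R397W Foxp3 libraries had 111 and 0 against 15.1 and 0 with IgG.

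The list of 25 transporters known from activated T cells had sites at 8 genes, 10 in all, of which 6 were common, 1 cTreg-specific and 3 eTreg-specific. They include Slc20a1, a phosphate importer, and Slc39a10, a zinc importer. Slc20a1 gave 76.4 and 12.6 with Foxp3 and 12.6 and 0 with IgG in WT cells, and 94.5 and 0 with Foxp3 and 63.4 and 0.636 with IgG in R397W cells. Slc39a10 gave 16 and 0 in WT Foxp3 and 33.7 and 0 in R397W Foxp3. The fitted R397W minus WT difference was below 0 at 5 of the 10 sites, with a median of -0.71, and 0 passed. Slc7a5, Slc1a5, Slc2a1, Slc16a1 and Slc16a3, transporters of leucine, glutamine, glucose and lactate, were among the 17 without a site given to them.

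Metal ion transporters held 5 of the 16 cTreg-specific Slc sites. Slc39a11, a zinc importer, had the strongest cTreg-specific Slc site, at chr11:113174041-113174441, 70.6 kb beyond the gene end. It gave 137 and 165 in the WT Foxp3 libraries against 262 and 50.7 with WT IgG, while the R397W Foxp3 libraries had 103 and 19.1 against 246 and 37.2 with IgG. R397W Foxp3 was below WT Foxp3 without overlap (log2 difference -1.73, SE 0.99, limma), but WT Foxp3 lay inside the range of IgG. Slc30a7, which loads zinc into the Golgi, had 3 cTreg-specific sites inside the gene within 30.1 kb, and 33 of 2760 genes had 3 or more. These summed to 146 and 46.4 with Foxp3 and 132 and 0 with IgG in WT cells, and 194 and 66.7 with Foxp3 and 184 and 0 with IgG in R397W cells, so the genotypes overlapped. Slc30a5, a zinc exporter of the early secretory pathway, had the single eTreg-specific site of the group. That site gave 101 and 0 with Foxp3 and 18.9 and 27.7 with IgG in WT cells. In R397W cells it gave 56.6 and 35.1 with Foxp3 and 121 and 6.66 with IgG.

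At the 5 sites over promoters, WT and R397W Foxp3 libraries overlapped. Slc35b4 gave 87.3 and 158 in the WT Foxp3 libraries against 104 and 74.1 with WT IgG, while the R397W Foxp3 libraries had 84.0 and 92.8 against 102 and 173 with IgG. Slc35a1 gave 44.9 and 80.1 with Foxp3 and 27.8 and 106 with IgG in WT cells, and 76.1 and 203 with Foxp3 and 72.4 and 30.5 with IgG in R397W cells. Slc15a4 gave 43.7 and 34.9 in the WT Foxp3 libraries against 58.8 and 178 with WT IgG, while the R397W Foxp3 libraries had 42.0 and 32.2 against 86.0 and 14.0 with IgG. Foxp3 stood above IgG without overlap at Slc35a1 in R397W cells, and below it at Slc35b4 in R397W cells and at Slc15a4 in WT cells. At Slc9b2, given above, WT Foxp3 was above WT IgG. The promoter site of Slc4a1ap had reads in 5 of the 8 libraries, with 38.8 and 0 in WT Foxp3 and 57.8 and 5.80 in R397W Foxp3. With IgG it gave 56.8 and 0 in WT cells and 49.8 and 0 in R397W cells.

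Slc15a1, a peptide transporter, differed in its relation to IgG between genotypes. It gave 23 and 8.85 with Foxp3 and 8.59 and 0 with IgG in WT cells, and 2.63 and 0 with Foxp3 and 77.0 and 45.2 with IgG in R397W cells. WT Foxp3 was above WT IgG and R397W Foxp3 below R397W IgG, each without overlap, but the difference did not pass (log2 -7.29, SE 4.66, limma). Against the IgG library of the same number, WT Foxp3 was higher and R397W Foxp3 lower in both replicates at 3 of 66 sites. These were sites of Slc15a1, Slc39a11 (a common site) and Slc9a9. Their share of 4.55% was close to the 4.31% of all sites, and the reverse was seen at 0 (1.47%).

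Foxp3 was compared with IgG across the Slc sites. The deposited scaling brings the typical covered site to a similar level in all 8 libraries, so enrichment shared by most sites cannot be seen. The values below place the Slc sites relative to the other listed sites only. In WT cells 0 of 66 passed the adjusted threshold (0.0725% of all sites), as with edgeR and DESeq2, and at an unadjusted p under 0.05 limma had 0 higher (2.41%) and 0 lower (0.163%), edgeR 0 and DESeq2 1. Both WT Foxp3 libraries lay above both WT IgG libraries at 16 of 66 sites (19.5% of all sites), and below them at 3, among them Slc15a4 and Slc4a8 (4.84%). In R397W cells limma, edgeR and DESeq2 called 0 (0% of all sites with limma), and at an unadjusted p under 0.05 limma had 0 higher (0.906%) and 0 lower (0.561%), edgeR 0 and DESeq2 4. There, 6 of 66 lay above IgG without overlap (10.4%) and 8 below (7.84%). The median log2 difference of Foxp3 and IgG was 1.80 in WT (1.27 over all sites), or 1.67 against 1.23 with the floor, and 0.00 in R397W (0.05 over all sites), or -0.07 against 0.13 with the floor. Sites without a bound were again left out with the floor, 1 Slc site in WT and 3 in R397W (194 and 529 of all sites). The WT median was 0.02 without WT IgG replicate 2 and 0.58 without WT Foxp3 replicate 1. The R397W median was 1.88 without R397W IgG replicate 1 and -1.19 without R397W IgG replicate 2. Leaving out R397W Foxp3 replicate 2 gave 1.19, and leaving out replicate 1 of that group gave -1.16. The test of the difference between genotypes called 0 of 66 (0% of all sites with limma), also with edgeR and DESeq2. At an unadjusted p under 0.05, limma had 0 lower (1.38%) and 0 higher (0.272%), edgeR 0 and DESeq2 3. Shares of all sites are given for limma only, so the edgeR and DESeq2 counts cannot be set against the whole list.

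Reads in all 8 libraries were found at 11 of 66 sites (17% of all sites), so that no library was empty there. They include those of Slc37a3, Slc39a11 (cTreg-specific), Slc12a8, Slc4a1ap (eTreg-specific), Slc35b4, Slc9b2, Slc6a6, Slc4a8, Slc35a1 and Slc15a4. R397W Foxp3 lay below WT Foxp3 without overlap at 4 of them, Slc37a3, Slc39a11, Slc12a8 and Slc4a1ap, against 15.9% of the 938 such sites in all, and above at 0, against 14.3%. Fitted on these 938 sites alone, the median log2 difference of R397W and WT was -0.08 over the 11, against -0.02 over all 938. That of WT Foxp3 and IgG was 0.38 against 0.05. The scale factors equal those derived from these same 938 sites, so medians near 0 over all of them follow from the scaling.

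**Figure D5:**
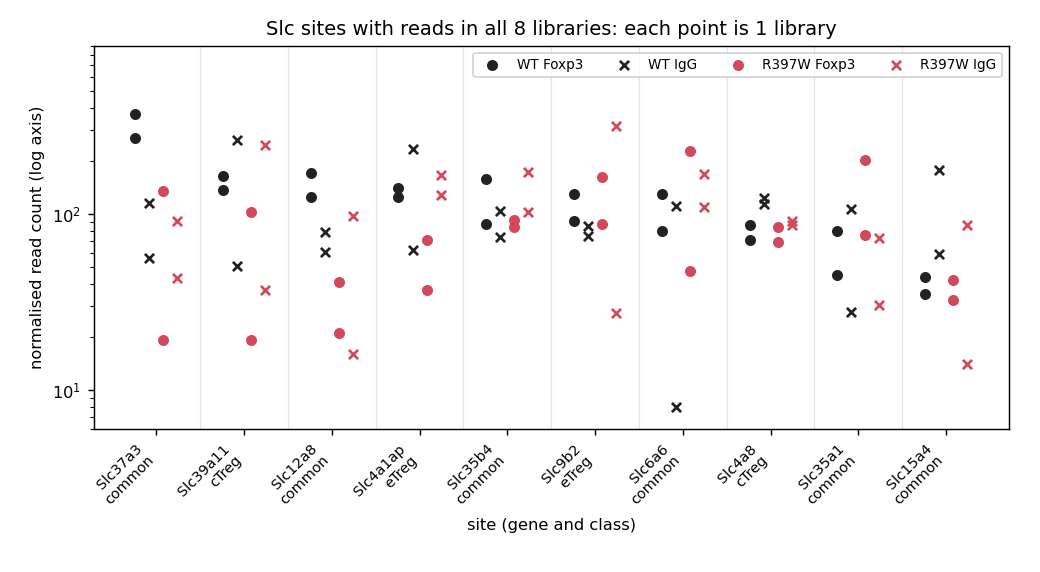
Normalised read count (y axis, log scale) of each library at 10 of the 11 Slc sites with reads in all 8 libraries (x axis, in order of WT Foxp3 mean); dots are Foxp3 and crosses IgG, black is WT and red R397W. WT Foxp3 stands above WT IgG without overlap at Slc37a3, Slc12a8 and Slc9b2 and below it at Slc4a8 and Slc15a4.

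Genes that sense nutrients and growth factors were set beside the transporters. Of 41 such genes, 9 had sites, 18 in all, of which 15 were common, 0 cTreg-specific and 3 eTreg-specific, and 0 passed the test of R397W against WT. Tsc1, an inhibitor of mTOR complex activity, gave 115 and 180 in WT Foxp3 and 150 and 135 in R397W Foxp3, while IgG gave 194 and 184 in WT cells and 99.6 and 115 in R397W cells. Foxo1, a transcription factor that keeps T cells quiescent, gave 114 and 99.6 in WT Foxp3 and 44.6 and 0 in R397W Foxp3 at its strongest site. IgG gave 60.8 and 0 there in WT cells and 45.3 and 1.91 in R397W cells. The other Foxo1 site gave 27.9 and 1.40 in WT Foxp3 and 13.1 and 2.58 in R397W Foxp3, so the genotypes overlapped there. At Tsc1 Foxp3 was below IgG in WT cells and above IgG in R397W cells, each without overlap. At the strongest Foxo1 site both WT Foxp3 libraries exceeded both WT IgG libraries. Of the other transport families, ABC transporters had 6 sites of 5 genes (3 common and 3 eTreg-specific), and the Slco family had none. P-type ATPase pumps had 16 sites of 9 genes (10 common, 3 cTreg-specific and 3 eTreg-specific). Potassium channel genes had 16 sites of 10 genes (9 common, 3 cTreg-specific and 4 eTreg-specific). The common share was 50% for ABC transporters, 62.5% for pumps and 56.3% for potassium channels, against 70.4% of all sites with a gene. A low common share was therefore not particular to Slc sites, although both sites of the aquaporins were common.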

How the data were processed

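The authors deposited a normalised signal per library at each listed site, spike-in normalised per the file names. Whole read counts were recovered from the deposited signal, since all values of a column (100%) came out as multiples of what 1 read is worth, to a tolerance of 0.01. The factors equal the median-of-ratios factors of each file's own sites (815 common, 58 cTreg-specific and 65 eTreg-specific sites with reads in all 8 libraries). The 3 files were thus scaled separately, and levels are compared across classes only with that limit. Such factors bring the typical covered site to a similar level in every library. A gain or loss shared by most sites, between genotypes or against IgG, is therefore scaled away. Builds mm10 and dm6 and the tools Bowtie2 2.5.2 and DiffBind 3.12.0 stand in the submitters' processing notes, without a role. Site calling and the treatment of duplicates are not given in the sources used here. Coordinates are the deposited ones, taken as mm10.

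In R 4.3.3, log2(value + 1) was tested with limma 3.58.1 (empirical Bayes with a trend, two-sided) with Benjamini-Hochberg adjustment over all 5521 sites. Such differences shrink the change between low values, but an empty library can enlarge a difference or turn its sign. At Slc12a9 the log2 difference of R397W and WT was 3.16 with limma, 1.54 with edgeR and 1.55 with DESeq2. At the eTreg-specific site of Slc30a5 it was 2.17 with limma, although the R397W mean of 45.8 was below the WT mean of 50.7. The 4 Foxp3 libraries entered the comparison of R397W and WT, and all 8 entered those with IgG. Recovered counts were also tested by the quasi-likelihood test of edgeR 4.0.16 and by DESeq2 1.42.0, both given the authors' factors. The fits were also run on simulated data, and the outcome is not given here, so it lends no weight to the calls of 0. Named sites were, per class, the 3 strongest in WT Foxp3, the 3 with the largest R397W difference among those without overlap, genes with 4 or more sites, sites over promoters, and the sites of the T cell list. Slc30a7, the locus of Slc12a7 and Slc6a19, and the 11 sites with reads in all libraries were chosen after their values were seen. Values of single sites of some genes are not reported here, although the sites stay in all counts and fits. Members and lists were chosen with earlier results of these data known. Alternatives were pseudocounts of 0.5 and 5, filters on low values, other scalings, a replicate block, no trend, a 10 kb gene limit and each library left out. Summaries used Python 3.11.15.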

Additional observations from a re-analysis of the deposited data

Results flagged for a closer look

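At 3 Slc sites, WT Foxp3 exceeded the WT IgG library of the same number in both replicates while R397W Foxp3 was below the R397W IgG library of the same number in both. This share of 4.55% of the 66 was close to the 4.31% of all sites, so it does not set the Slc sites apart. The reverse occurred at none of the 66 (1.47% of all sites). The sites are the common Slc39a11 site at chr11:113187351-113187751, with a difference between genotypes in Foxp3 over IgG of -3.22 on the log2 scale, the common Slc15a1 site, with -7.29, and the Slc9a9 site 8525 bp into the gene, with -7.36. Each of these values depends on the pseudocount of 1, since each site had libraries without reads, and at the Slc9a9 site neither R397W Foxp3 library had any. None passed the test of that difference (limma, lowest adjusted p of the 66 sites 0.9997, no unadjusted p under 0.05). At the Slc39a11 site WT cells gave 69.1 and 7.92 with Foxp3 against 47.6 and 0 with IgG, and R397W cells gave 28.9 and 46.4 against 99.6 and 93.5. The labels do not say that same-numbered libraries belong together beyond sharing a title and number.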

How the results depend on the processing

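Sites without reads limited the fits, as 11 of the 66 Slc sites had reads in all 8 libraries, and more reads in a library did not mean fewer empty sites. With each library left out in turn, Slc sites called numbered 0 to 4 for R397W against WT Foxp3, 0 to 2 for Foxp3 against IgG in WT, 0 to 0 for Foxp3 against IgG in R397W and 0 to 2 for the difference between genotypes. All calls appeared without a WT Foxp3 library: without replicate 2 they were Slc1a2, Slc5a11 and 2 Slc9a9 sites, none of which had reads in either R397W Foxp3 library, so that their fitted differences depend on the pseudocount and are not given, and without replicate 1 only Slc5a11 against IgG. The lone WT library is there assumed to vary like the other groups. With each library left out in turn, the medians ranged from -2.0 to 0.31 for R397W minus WT, 0.02 to 2.65 for WT Foxp3 minus IgG and -1.19 to 1.88 for R397W Foxp3 minus IgG.

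The share of reads in Slc sites of WT Foxp3 moved to 1.33% without the top 1% of sites, 0.908% with the 10 kb gene limit and 1.08% without the Slc37a3 sites, an alternative added after the data were seen. With the 10 kb limit it was 0.801% in WT IgG and 0.863% in R397W IgG. That limit kept 51 of the 66 Slc sites. It and the removal of Slc37a3 took out Slc sites but still divided by the reads of all sites, so a lower share follows from the counting. With no library left out, every setting called 0 Slc sites in every comparison. The R397W minus WT median changed sign without R397W Foxp3 replicate 2 (0.31). No single site that was refitted changed sign. Those sites had been picked for having no overlap between WT and R397W Foxp3, so leaving out a library could not reverse them. With the replicate number as a block, 0 Slc sites were called and the median for R397W minus WT was -0.61. Same-numbered libraries of WT and R397W Foxp3 deviated together only weakly (r = 0.17 over all sites, a description), and the labels give a number and no shared mouse or day.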
